A study of Mus musculus with 8 samples.

Results

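The clustered protocadherins are a family of cadherin-type adhesion proteins whose genes stand side by side on mouse chromosome 18 in the order alpha, beta and gamma. Members were taken from the deposited count table by gene name, and 49 of its 26709 genes matched: 6 alpha, 21 beta and 22 gamma genes, the gamma genes being 12 of type A, 7 of type B and 3 of type C. The family was selected on the measured contrast of treated and control tumours, in which Pcdhgc4 had one of the smallest p-values. The group differences of its members are therefore given below as a description, with no p-value printed for any member. Where members are counted or named by a p threshold, the calls come from that same contrast and are read no further. The levels come from RNA sequencing of 8 mammary tumours of EMT6, a mouse mammary carcinoma line, grown in Balb/c mice and labelled wild type.

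Of the tumours, 4 came from mice given GrB-Fc-KS49, in which the cell-killing protease granzyme B is fused to a human protein aimed at EMP2 on the cell surface, and 4 from mice given IgG, in each case 3 times in 10 days. All 8 are labelled as epithelial breast tumour cells, but the RNA is that of a tumour piece with its host cells. The sources used here do not say that each tumour came from another mouse, nor what the letter U at the end of the titles of GrB-Fc-KS49 replicate 3 and IgG control replicate 1 stands for. Replicate numbers name libraries and pair nothing. Library totals ran from 74.6 to 80.9 M estimated counts in GrB-Fc-KS49 tumours and from 74.0 to 82.6 M in IgG control tumours. Levels are CPM, counts scaled to a fixed library total, with TMM scaling, which trims extreme genes. In bulk tumour RNA, fewer cells of a type and less RNA per cell cannot be told apart.

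Each alpha and gamma gene has its own promoter and its own large variable exon, which encodes the extracellular cadherin repeats and the membrane span, and this exon is spliced to constant exons that all genes of the cluster share. Beta genes have no such constant exons. In neurons, where the family is best known, the DNA-binding factor CTCF and the cohesin complex bring a distal enhancer to a few of the promoters, so that single cells differ in the isoforms they carry. The proteins bind like isoforms on neighbouring cells, and that contact lets branches of 1 neuron avoid each other. The C-type genes are expressed more evenly among neurons than the others, and in mice Pcdhgc4 is needed for the survival of many interneurons.

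Because the constant exons are shared, only part of each gamma transcript can tell the genes apart, and this frames every value below. In the GENCODE M21 annotation, used here for transcript structure only, 21 gamma coding transcripts of 4 exons, the last 3 of them shared, were 4661 to 5080 bases long. Of these bases 2542 to 2961 were their own, and 41.7% to 45.5% were shared with other gamma genes. Pcdhgc4 had a transcript of this kind, Pcdhgc4-201, with 5024 bases of which 2905 were its own. It also had a short coding transcript, Pcdhgc4-203, with 2272 bases of which 153 were its own and 2119, or 93.3%, were shared. No other gamma coding transcript that carried all the shared bases had so few of its own. Alpha genes shared 48.6% to 54.9% of their longest transcript. Among 22 annotated beta genes, 20 shared no base with another beta gene, and Pcdhb21 and Pcdhb22 overlapped by 455 bases.

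**Figure D1:**
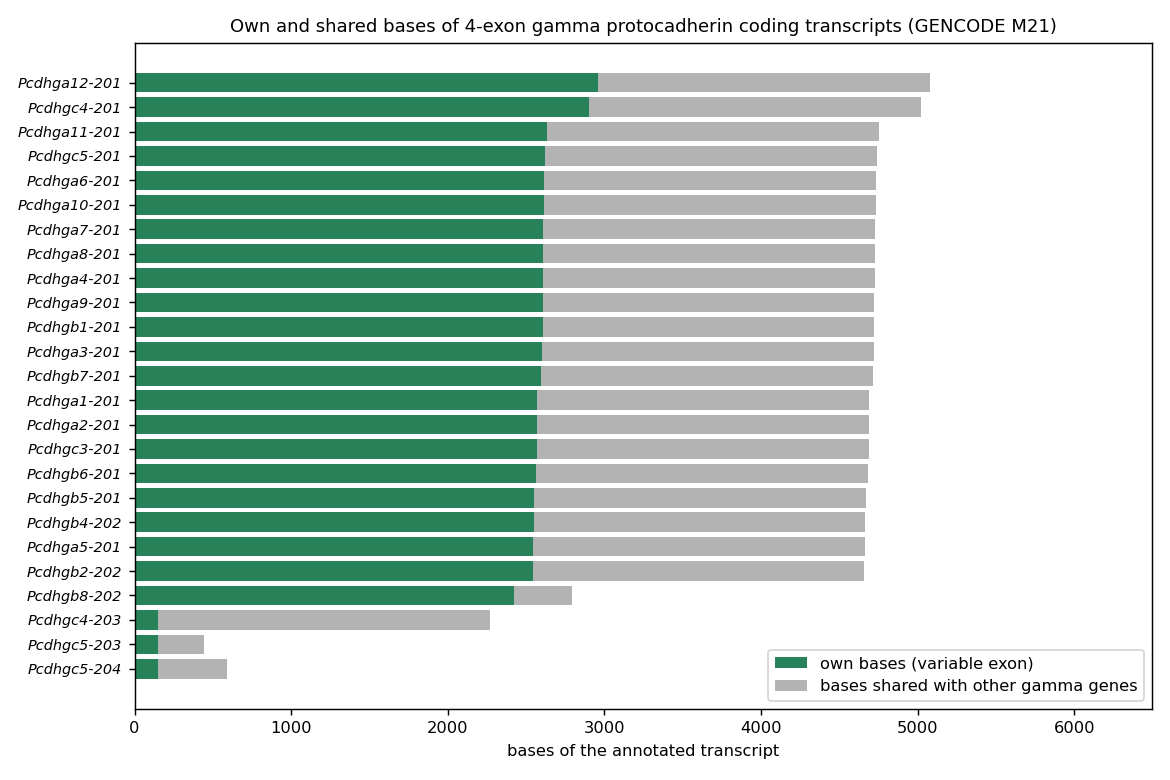
Own bases (green) and bases shared with other gamma genes (grey) of the annotated 4-exon gamma protocadherin coding transcripts, in bases. Of the transcripts with 2116 or 2119 shared bases, Pcdhgc4-203 has 153 own bases and the other 21 have 2542 to 2961. Pcdhgc5-203 and Pcdhgc5-204, with 147 own bases each, and Pcdhgb8-202, with 2421, carry fewer shared bases.

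Fractional counts were common in the gamma cluster. A count above 0 was a whole number, within 0.001, in 0.568% of the values of gamma genes, in 39.6% of those of alpha genes, in 59.3% of those of beta genes and in 47.3% of those of all genes. Nearly every gamma count was thus a fraction, and how the authors' counting divided reads of shared exons among genes was not stated in the sources used. Values of single gamma genes are therefore uncertain, while sums over the gamma cluster do not depend on that division.

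The gamma cluster held most of the family's RNA in these tumours. Summed over members, it reached 226 ± 29.6 CPM in GrB-Fc-KS49 tumours, against 257 ± 15.6 CPM in IgG control tumours (SD, n = 4 each, here and below). The beta cluster reached 22 ± 3.99 CPM in GrB-Fc-KS49 tumours, against 25.2 ± 0.672 CPM in IgG control tumours. Alpha members were near the detection limit, with 0.536 ± 0.322 CPM in GrB-Fc-KS49 tumours, against 0.356 ± 0.108 CPM in IgG control tumours. Between 46 and 49 members had at least 1 count in a GrB-Fc-KS49 library, and between 44 and 47 in an IgG control library.

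Per kilobase of the longest coding transcript, the order of the leading genes differed between the groups. In GrB-Fc-KS49 tumours Pcdhgc4 stood first at 20.1 CPM per kb, before Pcdhgc3 at 14.3, Pcdhgb5 at 4.38 and Pcdhgb1 at 1.53. In IgG control tumours Pcdhgc3 stood first at 25.9 CPM per kb, before Pcdhgc4 at 8.52, Pcdhgb5 at 7.68 and Pcdhgb1 at 3.28. Pcdhgc4 and Pcdhgb5 were close neighbours in that order in IgG control tumours. Pcdhb22 was the leading beta gene, at 1.32 CPM per kb in GrB-Fc-KS49 tumours, against 1.33 in IgG control tumours, and Pcdhga6 the leading A-type gene, at 1.38 CPM per kb with GrB-Fc-KS49 and 1.32 with IgG. Taking the short transcript's length instead would put Pcdhgc4 at 44.5 CPM per kb in GrB-Fc-KS49 tumours, against 18.9 in IgG control tumours.

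**Figure D2:**
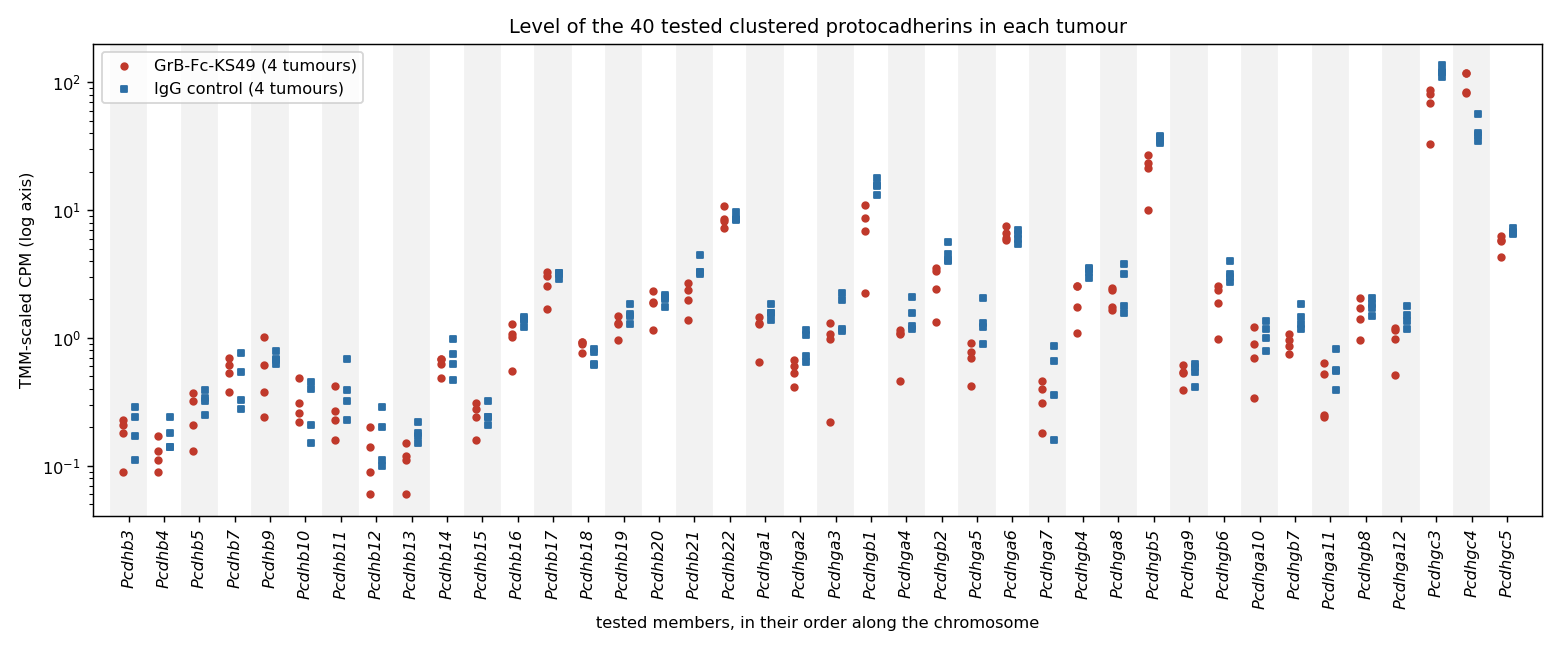
TMM-scaled CPM (log axis) of the 40 tested members in each tumour, in their order along the chromosome, with GrB-Fc-KS49 tumours as circles and IgG control tumours as squares. The C-type genes Pcdhgc3 and Pcdhgc4 stand highest, and Pcdhgc4 is the only tested member whose GrB-Fc-KS49 tumours all lie above its IgG control tumours.

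Most members were lower in the mean in GrB-Fc-KS49 tumours, and Pcdhgc4 went the other way. The filter on low counts kept 19718 genes, among them 40 members: all 22 gamma genes, 18 beta genes and no alpha gene. In edgeR's quasi-likelihood test with Benjamini-Hochberg adjustment over these genes, 0 genes (0%) passed at an adjusted p under 0.05, no member among them, and 0.0619 was the lowest adjusted p. At an unadjusted p under 0.05 stood 6915 genes, 17.3% of all tested genes being higher and 17.8% lower. Among members 1 was higher (Pcdhgc4) and 10 were lower by that rule, a count from the contrast that led to the family and read no further.

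The 4 tumours of either group did not overlap for 1 higher member, Pcdhgc4, beside 10.3% of all tested genes, and for 10 lower members, beside 15.3% of all tested genes. DESeq2 called 4747 genes (25.7%) at an adjusted p under 0.05, 12.3% of its genes higher and 13.5% lower, with 1 member higher (Pcdhgc4) and 8 lower: Pcdhgc3, Pcdhgb1, Pcdhgb2, Pcdhgb4, Pcdhgb5, Pcdhgb7, Pcdhga5 and Pcdhb21. By the same rule limma-voom, and limma on log2(CPM + 1) or log2(CPM + 0.25), called 0 members. The DESeq2 calls too come from the contrast that led to the family and are read no further. The median log2 fold change of the 40 members was -0.47, against 0.03 over all tested genes; it was -0.24 without GrB-Fc-KS49 replicate 1 and -0.26 without IgG control replicate 1. In the mean 5 were higher (Pcdhgc4, Pcdhga6, Pcdhb7, Pcdhb10 and Pcdhb18) and 35 lower.

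With single libraries left out, edgeR called genes at an adjusted p under 0.05 in the fits without GrB-Fc-KS49 replicate 1 or replicate 4. It called 0 genes in each of the others. Without GrB-Fc-KS49 replicate 1, it called Pcdhgc4 higher, beside 2.23% of genes higher, and Pcdhgc3, Pcdhgb1 and Pcdhgb5 lower, beside 4.09% of genes lower. Without GrB-Fc-KS49 replicate 4, it called Pcdhgc4 higher, beside 7.12% of genes higher, and Pcdhgc3, Pcdhgb5 and Pcdhb21 lower, beside 10.0% of genes lower. Leaving out IgG control replicate 1 took the lower members at an unadjusted p under 0.05 to 3. All these calls of members come from the contrast that led to the family and are read no further.

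**Figure D3:**
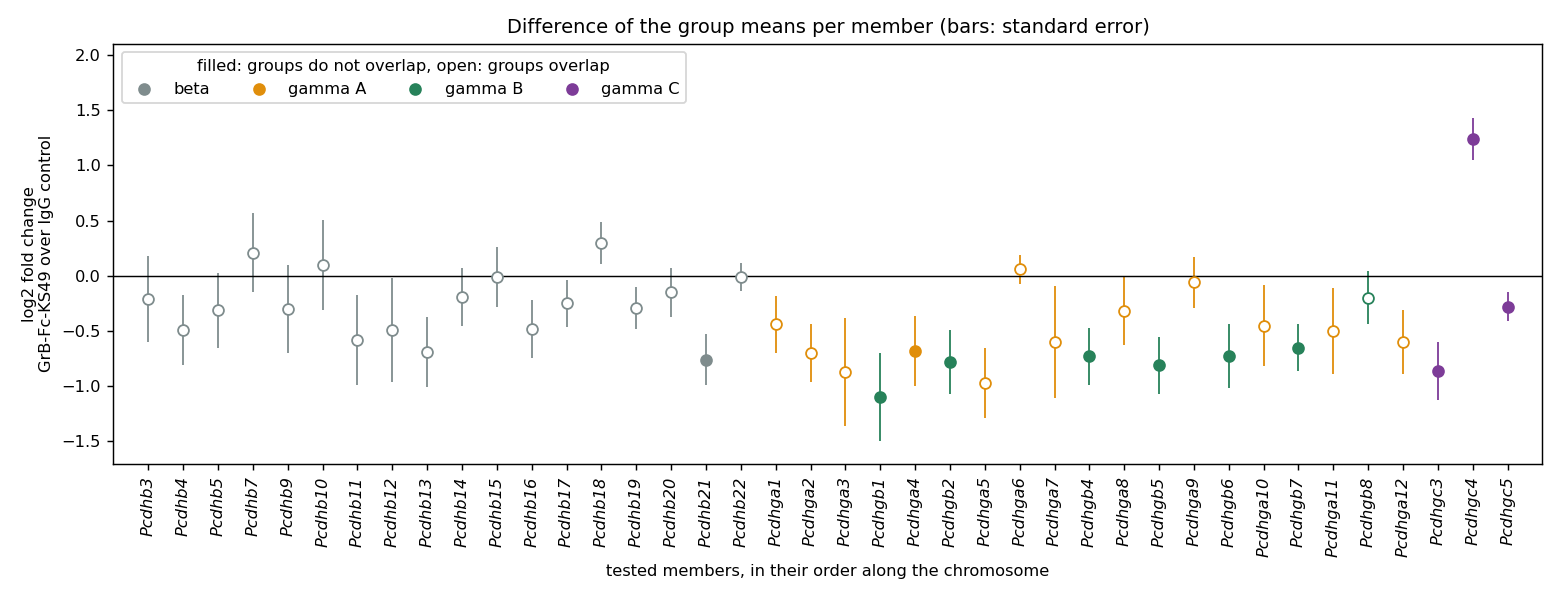
Log2 fold change of GrB-Fc-KS49 over IgG control tumours for the 40 tested members along the chromosome, with bars for the standard error, filled points where the groups do not overlap and open points where they do. Pcdhgc4 lies at 1.24, while the B-type gamma genes lie between -1.10 and -0.20.

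The C-type gamma genes lie at the far end of the cluster, Pcdhgc4 (ENSMUSG00000023036) at chr18:37948132-37974926 on the plus strand of GRCm39. Pcdhgc4, whose mouse protein reaches the surface of cultured cells only together with other isoforms, had 119, 84.7, 118 and 83.0 CPM in replicates 1 to 4 of GrB-Fc-KS49, against 40.5, 39, 34.9 and 56.9 CPM in replicates 1 to 4 of IgG control. The groups did not overlap, and in GrB-Fc-KS49 tumours replicates 1 and 3 stood above replicates 2 and 4. Its mean was 101 ± 20.0 CPM in GrB-Fc-KS49 tumours, against 42.8 ± 9.70 CPM in IgG control tumours, a log2 fold change of 1.24 (SE 0.19).

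Pcdhgc3, the upstream neighbour of Pcdhgc4 (chr18:37939417-37974926), has been tied to dendrite branching and to Wnt signalling through its partner Axin1. It had 32.8, 80.3, 68.3 and 87.0 CPM in replicates 1 to 4 of GrB-Fc-KS49, against 136, 120, 120 and 111 CPM in replicates 1 to 4 of IgG control. All treated tumours were below all control tumours, with GrB-Fc-KS49 replicate 1 the lowest. Means were 67.1 ± 24.2 CPM in GrB-Fc-KS49 tumours, against 122 ± 10.4 CPM in IgG control tumours, a log2 fold change of -0.86 (SE 0.26).

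The ratio of Pcdhgc4 to Pcdhgc3 counts was 3.63, 1.05, 1.73 and 0.955 in replicates 1 to 4 of GrB-Fc-KS49, against 0.298, 0.325, 0.291 and 0.515 in IgG control replicates 1 to 4. The sum of these neighbours was 152, 165, 186 and 170 CPM in replicates 1 to 4 of GrB-Fc-KS49, against 176, 159, 155 and 168 CPM in replicates 1 to 4 of IgG control. The ratios did not overlap between the groups, whereas the sums did, with means of 168 ± 14.4 CPM in GrB-Fc-KS49 tumours, against 164 ± 9.42 CPM in IgG control tumours.

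Pcdhgc5, the last gene of the cluster (chr18:37952566-37974926), was much lower in level than the other C-type genes. Its values were 4.33, 5.78, 5.82 and 6.33 CPM in replicates 1 to 4 of GrB-Fc-KS49, against 7.19, 6.72, 6.51 and 6.67 CPM in replicates 1 to 4 of IgG control. The groups did not overlap but lay close, with a log2 fold change of -0.28 (SE 0.13).

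The 7 B-type gamma genes were all lower in the mean in GrB-Fc-KS49 tumours, with log2 fold changes of -1.10 to -0.20 and a median of -0.73. In 6 of them, all but Pcdhgb8, the groups did not overlap, beside 15.3% of all tested genes lower without overlap. Pcdhgb5, the most abundant, had 10.0, 23.2, 21.4 and 27.2 CPM in replicates 1 to 4 of GrB-Fc-KS49, against 37.2, 33.2, 38.0 and 35.1 CPM in replicates 1 to 4 of IgG control. Every treated tumour was below every control tumour, and the log2 fold change was -0.81 (SE 0.26).

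Pcdhgb1 had the lowest log2 fold change of the family, -1.10 (SE 0.40). It stood at 2.25, 6.93, 8.73 and 11 CPM in replicates 1 to 4 of GrB-Fc-KS49, against 17.8, 15.7, 15.4 and 13.2 CPM in replicates 1 to 4 of IgG control. GrB-Fc-KS49 replicate 1 was the lowest tumour for this gene, for Pcdhgb5 and for Pcdhgc3.

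Pcdhgb2 had 1.34, 2.43, 3.53 and 3.35 CPM in replicates 1 to 4 of GrB-Fc-KS49, against 5.65, 4.52, 4.05 and 4.01 CPM in replicates 1 to 4 of IgG control (log2 fold change -0.78, SE 0.29). Pcdhgb4 had 1.09, 2.55, 1.76 and 2.55 CPM in replicates 1 to 4 of GrB-Fc-KS49, against 3.50, 3.26, 3.49 and 2.92 CPM in replicates 1 to 4 of IgG control (log2 fold change -0.73, SE 0.26). Pcdhgb6 and Pcdhgb7 were likewise lower without overlap, at log2 fold changes of -0.73 and -0.65. Pcdhgb8 had 1.54 ± 0.466 CPM in GrB-Fc-KS49 tumours, against 1.77 ± 0.232 CPM in IgG control tumours, and its groups overlapped.

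**Figure D4:**
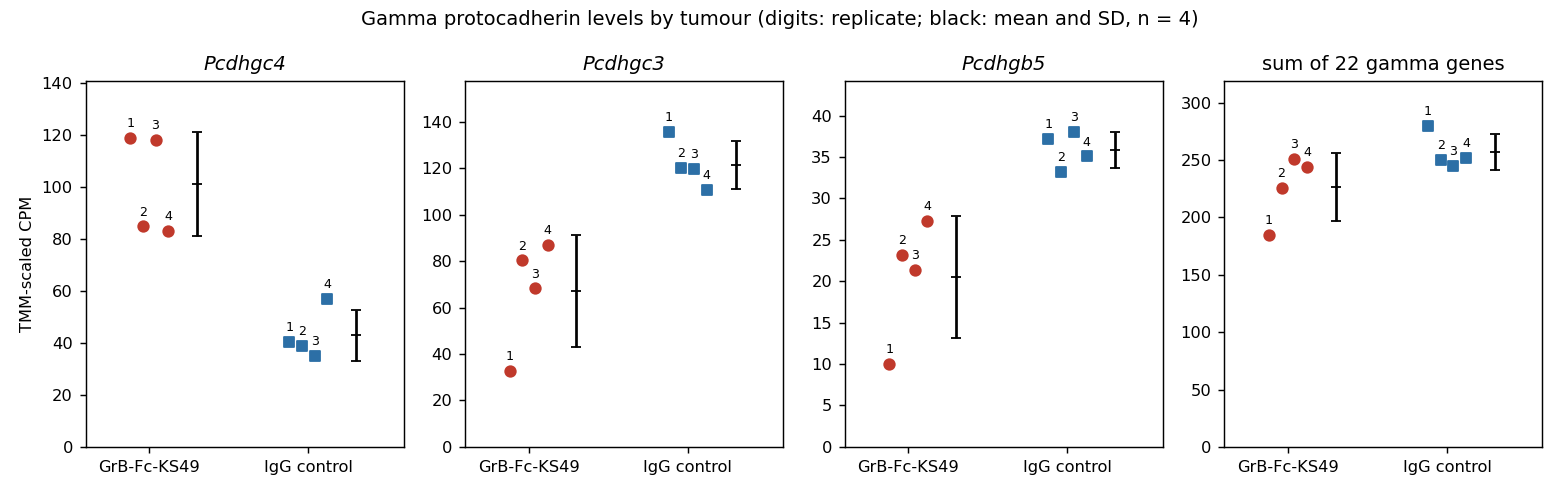
TMM-scaled CPM of gamma protocadherins in each tumour, GrB-Fc-KS49 left of IgG control, with digits for the replicate and black marks for the mean and SD (n = 4). Pcdhgc4 is higher and Pcdhgc3 lower in all GrB-Fc-KS49 tumours. The sum over the gamma cluster overlaps between the groups, where only GrB-Fc-KS49 replicate 3 reaches the lowest control tumour.

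Of the 12 A-type gamma genes, 11 were lower in the mean, with log2 fold changes from -0.97 to 0.06 and a median of -0.55, but the groups overlapped in all except Pcdhga4. Pcdhga6, the most abundant, had 5.80, 6.07, 7.51 and 6.65 CPM in replicates 1 to 4 of GrB-Fc-KS49, against 6.95, 5.41, 5.99 and 6.54 CPM in replicates 1 to 4 of IgG control. Its groups overlapped, with GrB-Fc-KS49 replicate 3 the highest tumour and IgG control replicate 2 the lowest, at a log2 fold change of 0.06 (SE 0.13).

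Pcdhga5 had the lowest log2 fold change of this type, -0.97 (SE 0.32), with 0.415, 0.701, 0.766 and 0.922 CPM in replicates 1 to 4 of GrB-Fc-KS49, against 2.06, 1.31, 1.21 and 0.896 CPM in replicates 1 to 4 of IgG control. Only GrB-Fc-KS49 replicate 4 reached the lowest control tumour. Pcdhga3 was at -0.87 (SE 0.49), with 0.217 to 1.31 CPM in GrB-Fc-KS49 tumours, against 1.13 to 2.25 CPM in IgG control tumours. Pcdhga2 was at -0.70 (SE 0.26), and Pcdhga8 and Pcdhga1, next in level after Pcdhga6, were at -0.32 and -0.44. Pcdhga4 had 0.458 to 1.16 CPM in GrB-Fc-KS49 tumours, against 1.17 to 2.1 CPM in IgG control tumours.

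Beta genes do not use the gamma constant exons. Of 18 tested, 15 were lower and 3 higher in the mean, with log2 fold changes from -0.76 to 0.30 and a median of -0.27. Pcdhb22, the most abundant, had 7.23, 8.22, 10.8 and 8.59 CPM in replicates 1 to 4 of GrB-Fc-KS49, against 8.37, 8.48, 8.49 and 9.71 CPM in replicates 1 to 4 of IgG control. Its groups overlapped, at a log2 fold change of -0.01 (SE 0.13), and it made up 36% to 43.5% of the beta counts in GrB-Fc-KS49 tumours, against 32.4% to 37.7% in IgG control tumours.

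Pcdhb21, which overlaps Pcdhb22, was the only beta gene whose groups did not overlap. It had 1.38, 2.39, 1.97 and 2.67 CPM in replicates 1 to 4 of GrB-Fc-KS49, against 3.30, 3.19, 4.49 and 3.30 CPM in replicates 1 to 4 of IgG control, a log2 fold change of -0.76 (SE 0.23). Pcdhb17 and Pcdhb20, both moderately abundant, were at -0.25 (SE 0.21) and -0.15 (SE 0.22). The low genes Pcdhb13 and Pcdhb11 were at -0.69 (SE 0.32) and -0.58 (SE 0.41), with overlapping groups. Pcdhb18 was at 0.30 (SE 0.19), with 0.758 to 0.932 CPM in GrB-Fc-KS49 tumours, against 0.621 to 0.823 CPM in IgG control tumours.

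The 3 untested beta genes, Pcdhb2, Pcdhb6 and Pcdhb8, had 38.0, 32.1 and 81.0 estimated counts over all 8 libraries. The 6 alpha genes in the table, Pcdha3, Pcdha5, Pcdha8, Pcdha9, Pcdha10 and the C-type gene Pcdhac2, had too few counts for a test. Their summed level was 0.287, 0.932, 0.666 and 0.260 CPM in replicates 1 to 4 of GrB-Fc-KS49, against 0.484, 0.309, 0.235 and 0.397 CPM in replicates 1 to 4 of IgG control, and the groups overlapped. Pcdha9 was the most abundant, at 0.182 ± 0.123 CPM in GrB-Fc-KS49 tumours, against 0.141 ± 0.130 CPM in IgG control tumours. The table names Pcdha10 the gene whose ID belongs to Pcdha11 in GENCODE M21.

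Summed over clusters, which removes the division of reads within the gamma cluster, the groups overlapped. The gamma sum was 185, 226, 251 and 244 CPM in replicates 1 to 4 of GrB-Fc-KS49, against 280, 250, 245 and 252 CPM in replicates 1 to 4 of IgG control, a log2 ratio of -0.18. GrB-Fc-KS49 replicate 1 was the lowest tumour, and only GrB-Fc-KS49 replicate 3 reached the lowest control tumour. The beta sum was 16.6, 22.9, 26.3 and 22.3 CPM in replicates 1 to 4 of GrB-Fc-KS49, against 25.8, 24.6, 24.7 and 25.8 CPM in replicates 1 to 4 of IgG control, a log2 ratio of -0.20. There too, only GrB-Fc-KS49 replicate 3 reached the lowest control tumour. With each cluster entered in the edgeR fit as a single row of summed counts, the log2 fold changes were -0.18 (SE 0.10) for gamma, -0.20 (SE 0.13) for beta and 0.59 (SE 0.45) for alpha.

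Within the gamma cluster, sums were taken by type. Unlike the whole gamma sum, these sums, and the sum without Pcdhgc4, still depend on how reads of shared exons were divided. The C-type sum was 156 to 192 CPM in GrB-Fc-KS49 tumours, against 161 to 183 CPM in IgG control tumours, a log2 ratio of 0.02, and the A-type sum averaged 15.9 ± 3.07 CPM with GrB-Fc-KS49 and 20.0 ± 3.62 CPM with IgG. The B-type sum did not overlap, with 17.4, 39.5, 40.9 and 49.2 CPM in replicates 1 to 4 of GrB-Fc-KS49, against 72.0, 63.2, 66.3 and 61.2 CPM in replicates 1 to 4 of IgG control. All gamma genes other than Pcdhgc4 together had 125 ± 41.2 CPM in GrB-Fc-KS49 tumours, against 214 ± 18.3 CPM in IgG control tumours, again without overlap.

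As a share of all gamma counts, Pcdhgc4 held 64.3%, 37.4%, 47.1% and 34% in replicates 1 to 4 of GrB-Fc-KS49, against 14.5%, 15.6%, 14.3% and 22.6% in IgG control replicates 1 to 4. Pcdhgc3 held 17.7%, 35.5%, 27.3% and 35.6% in replicates 1 to 4 of GrB-Fc-KS49, against 48.5%, 47.9%, 49.0% and 43.8% in IgG control replicates 1 to 4. Neither share overlapped between the groups. The B-type genes held 9.43% to 20.2% in GrB-Fc-KS49 tumours, against 24.2% to 27.1% in IgG control tumours, while Pcdhgc5 held 2.32% to 2.59% with GrB-Fc-KS49 and 2.57% to 2.68% with IgG. All these shares have Pcdhgc4 in their total, so the other gamma genes together hold less wherever Pcdhgc4 takes more. A single share need not be lower: Pcdhga6 held 2.68% to 3.14% with GrB-Fc-KS49 and 2.16% to 2.59% with IgG.

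As a share of the gamma counts other than Pcdhgc4, the groups overlapped for Pcdhgc3, at 49.6% to 56.7% with GrB-Fc-KS49 and 56.6% to 57.2% with IgG, and for Pcdhgb5, at 15.2% to 16.9% with GrB-Fc-KS49 and 15.5% to 18.1% with IgG. For Pcdhgc3 only GrB-Fc-KS49 replicate 2, at 56.7%, reached the lowest control tumour, IgG control replicate 4 at 56.6%. On that base Pcdhgc5 held 3.93% to 6.55% with GrB-Fc-KS49 and 3.01% to 3.41% with IgG, and Pcdhga6 held 4.13% to 8.79% with GrB-Fc-KS49 and 2.56% to 3.35% with IgG, both without overlap. Also higher without overlap were Pcdhgb8, at 0.99% to 1.56% with GrB-Fc-KS49 and 0.708% to 0.878% with IgG, and Pcdhga1. Pcdhga1 held 0.902% to 0.986% with GrB-Fc-KS49 and 0.661% to 0.876% with IgG.

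**Figure D5:**
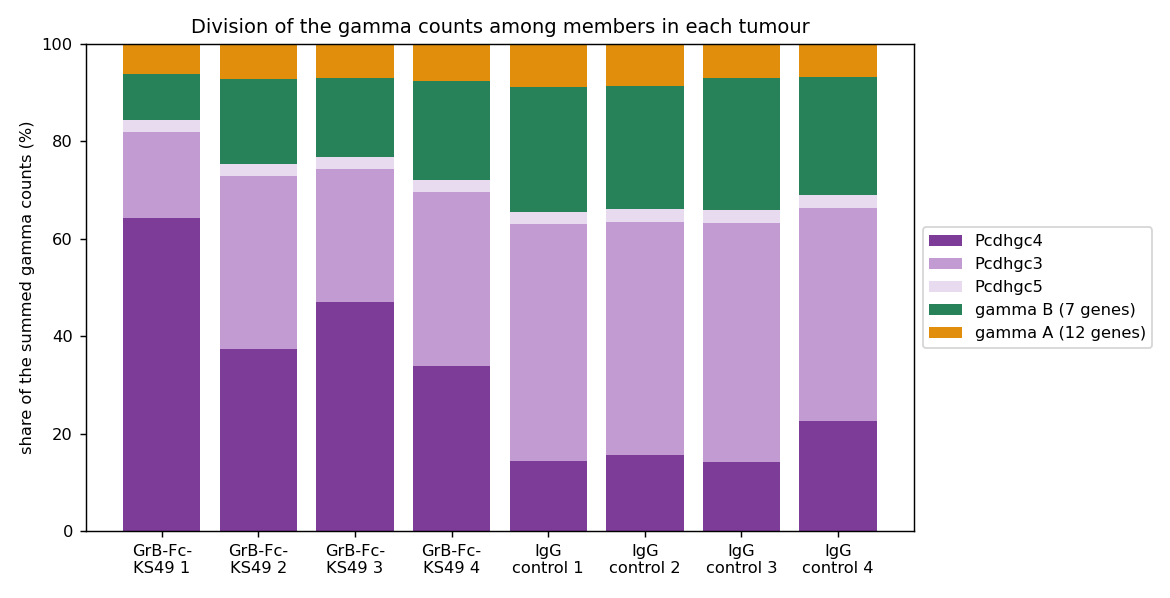
Share of the summed gamma counts (%) held by Pcdhgc4, the other C-type genes, the 7 B-type and the 12 A-type genes in each of the 8 tumours. Pcdhgc4 holds 34% to 64.3% in GrB-Fc-KS49 tumours, against 14.3% to 22.6% in IgG control tumours.

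The length of transcripts moved with the groups in the whole table. Over protein-coding genes outside the family, the median log2 fold change was 0.30 in the fifth of genes with the shortest transcripts (201 to 1751 bases) and -0.24 in the fifth with the longest (5077 bases and more). Within libraries, log2(CPM + 0.5) relative to the mean of all libraries shifted per doubling of length by -0.22, -0.09, -0.03 and -0.01 in replicates 1 to 4 of GrB-Fc-KS49, against 0.11, 0.09, 0.08 and 0.08 in IgG control replicates 1 to 4. GrB-Fc-KS49 replicate 1 had the lowest of these slopes, the highest Pcdhgc4 share and the lowest Pcdhgc3 level. In GrB-Fc-KS49 replicate 3 the slope was -0.03 and the Pcdhgc4 share 47.1%, against -0.09 and 37.4% in replicate 2. A link between slope and share was not tested. With a trend on the length of each gene's longest coding transcript removed, Pcdhgc4 was at 1.38, Pcdhgc3 at -0.76 and Pcdhgb5 at -0.71, and the median of the members was -0.35, against 0 over all genes. That fit gives Pcdhgc4 the length of its long transcript, and the part of the short one in the Pcdhgc4 values was not tested.

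Markers of other cell types also moved between tumours. Of 12 neuron markers 9 had a row in the table, and their summed level was 7.67 to 13.4 CPM in GrB-Fc-KS49 tumours, against 9.21 to 11.3 CPM in IgG control tumours, mostly from Tubb3. The nuclear neuron marker Rbfox3 had 0.262 ± 0.118 CPM in GrB-Fc-KS49 tumours, against 0.273 ± 0.160 CPM in IgG control tumours. Schwann cell and nerve markers, 11 of 12 with a row, summed to 18.9 to 30.6 CPM in GrB-Fc-KS49 tumours, against 18.2 to 21.5 CPM in IgG control tumours, mostly from Mbp and Prx. Of 8 tested, 6 were higher and 2 lower in the mean, with a median log2 fold change of 0.46 and overlapping groups in each. Of the epithelial markers, Krt8 had 528 ± 108 CPM in GrB-Fc-KS49 tumours, against 444 ± 23.3 CPM in IgG control tumours, while Epcam was low, at 8.16 ± 5.77 CPM with GrB-Fc-KS49 and 4.10 ± 0.612 CPM with IgG.

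Larger spreads appeared in lists with all 10 or 12 markers in the table. Macrophage markers summed to 1520 to 3250 CPM in GrB-Fc-KS49 tumours, against 1190 to 1540 CPM in IgG control tumours, and T cell markers to 13.9 to 77.4 CPM with GrB-Fc-KS49 and 11.1 to 17.5 CPM with IgG. Skeletal muscle markers summed to 50.1 to 3030 CPM in GrB-Fc-KS49 tumours, highest in replicate 1, and to 52.1 to 234 CPM in IgG control tumours. Epidermis markers reached 10.8 to 2300 CPM in GrB-Fc-KS49 tumours, highest in replicate 2, and 8.72 to 18.5 CPM in IgG control tumours. Adipocyte markers lay at 31.9 to 244 CPM with GrB-Fc-KS49 and 13.1 to 44.0 CPM with IgG, endothelial markers at 226 to 355 CPM with GrB-Fc-KS49 and 168 to 320 CPM with IgG, fibroblast markers at 6300 to 16700 CPM with GrB-Fc-KS49 and 8700 to 14600 CPM with IgG, and tumour epithelium markers at 476 to 833 CPM with GrB-Fc-KS49 and 483 to 565 CPM with IgG. GrB-Fc-KS49 replicate 3 was the highest tumour for adipocyte, endothelial and fibroblast markers. With GrB-Fc-KS49 replicates 1 to 4 left out in turn, the log2 fold change of Pcdhgc4 was 1.15, 1.33, 1.16 and 1.32. The part of these cell types in the members' values was not tested.

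Genes known to govern the choice and silencing of protocadherin promoters were all lower in the mean in GrB-Fc-KS49 tumours. Of 20 such genes 0 had an adjusted p under 0.05 in edgeR, and 12 were lower at an unadjusted p under 0.05, beside 17.8% of all tested genes, with a median log2 fold change of -0.29. Over protein-coding genes outside the family, the median was 0.30 in the fifth with the shortest transcripts and -0.24 in that with the longest. The part of transcript length in the values of these 20 genes was not tested. Smchd1, which helps to silence the clusters in mice, had 66.7 ± 7.76 CPM in GrB-Fc-KS49 tumours, against 90.8 ± 3.28 CPM in IgG control tumours (log2 fold change -0.45, SE 0.09). The cohesin regulator Pds5a was at 102 ± 12.4 CPM with GrB-Fc-KS49 and 139 ± 4.49 CPM with IgG, and the cohesin subunit Stag1 at 69.9 ± 7.03 CPM with GrB-Fc-KS49 and 89.4 ± 2.95 CPM with IgG. Ctcf itself was at -0.16 (SE 0.06).

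Among partners of the cytoplasmic domains, 0 of 15 tested genes stood at an adjusted p under 0.05 in edgeR, while 1 was higher (Brk1) and 8 were lower at an unadjusted p under 0.05, beside 17.3% of all tested genes higher and 17.8% lower. The median log2 fold change was -0.25, and the part of transcript length in these values was not tested. Nckap1, a subunit of the actin-regulating WAVE complex that binds cytoplasmic tails of protocadherins, had 131 ± 24.1 CPM in GrB-Fc-KS49 tumours, against 184 ± 9.62 CPM in IgG control tumours. Ptk2, the focal adhesion kinase that these tails inhibit, was at 118 ± 13.5 CPM with GrB-Fc-KS49 and 149 ± 6.49 CPM with IgG, and the WAVE complex subunit Abi1 at 86.2 ± 10.5 CPM with GrB-Fc-KS49 and 109 ± 5.64 CPM with IgG.

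The 7 genes that cleave protocadherins at the membrane were mixed, with none at an adjusted p under 0.05, 3 higher (Psenen, Aph1a and Psen2) and 1 lower (Adam10) at an unadjusted p under 0.05, beside 17.3% of all tested genes higher and 17.8% lower. Psenen, a gamma-secretase subunit, had 25.4 ± 5.37 CPM in GrB-Fc-KS49 tumours, against 17.8 ± 1.18 CPM in IgG control tumours, and Aph1a, another subunit, was at 159 ± 9.89 CPM with GrB-Fc-KS49 and 138 ± 3.31 CPM with IgG. Adam10, the protease that sheds the ectodomain, had 109 ± 12.2 CPM in GrB-Fc-KS49 tumours, against 137 ± 8.49 CPM in IgG control tumours.

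Protocadherins outside the clusters had a median log2 fold change of -0.08 over 7 tested genes, and none had an adjusted p under 0.05. At an unadjusted p under 0.05, beside the same 17.3% of all tested genes higher and 17.8% lower, Pcdh10 was higher, with 1.04 ± 0.217 CPM in GrB-Fc-KS49 tumours, against 0.564 ± 0.242 CPM in IgG control tumours. By the same rule Pcdh18 was lower, with 22.9 ± 6.58 CPM in GrB-Fc-KS49 tumours, against 34.3 ± 2.96 CPM in IgG control tumours. Among 10 classical cadherins and catenins, none at an adjusted p under 0.05 either, the cadherin-binding proteins Ctnnd1 and Ctnna1 were lower at an unadjusted p under 0.05, a share near the 17.8% of all tested genes. Ctnnd1 had 224 ± 41.2 CPM in GrB-Fc-KS49 tumours, against 297 ± 10.9 CPM in IgG control tumours, and Ctnna1 was at 398 ± 46.3 CPM with GrB-Fc-KS49 and 468 ± 24.1 CPM with IgG.

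Genes around the clusters are given for comparison. Within 500 kb beyond the last gamma gene, 12 genes were tested, with a median log2 fold change of 0.04 and 0 at an unadjusted p under 0.05. The nearest, Diaph1, which encodes an actin-nucleating formin, had 137 ± 25.9 CPM in GrB-Fc-KS49 tumours, against 140 ± 13.4 CPM in IgG control tumours. The histone deacetylase gene Hdac3 was at 97.5 ± 7.68 CPM with GrB-Fc-KS49 and 88.0 ± 6.48 CPM with IgG, and Rell2 at 0.266 ± 0.0782 CPM with GrB-Fc-KS49 and 0.214 ± 0.0441 CPM with IgG. Before the alpha cluster, 21 genes were tested, with a median of 0.09, and 5 were higher at an unadjusted p under 0.05 (Pfdn1, Eif4ebp3, Ndufa2, Zmat2 and a gene with no name in the table), beside 17.3% of all tested genes. The nearest on that side were Gm6756, Zmat2 and Hars2, at log2 fold changes of -0.27, 0.43 and -0.11.

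Between the members lay 10 other genes, 7 of them tested. Taf7, which encodes a subunit of the general transcription factor TFIID, had 8.94 ± 0.151 CPM in GrB-Fc-KS49 tumours, against 8.20 ± 0.454 CPM in IgG control tumours. Gm8242 and 3222401L13Rik were higher at an unadjusted p under 0.05, beside 17.3% of all tested genes, at log2 fold changes of 0.65 and 0.56. BC037039, on the strand opposite Pcdhgc3 and overlapping its start, had 1.67 ± 0.391 CPM in GrB-Fc-KS49 tumours, against 1.6 ± 0.398 CPM in IgG control tumours. How strand was used in counting was not stated, so its reads and those of Pcdhgc3 cannot be told apart there. Gm53048 and Gm26672, also between members, were at 0.91 and -0.37, and Gm29994 at 0.34, while Gm37446, Gm37165 and Slc25a2 were not tested.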

How the data were processed

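Total RNA was enriched for poly(A) and built into dUTP-marked libraries (KAPA Stranded mRNA-Seq), per the labels' protocols. Demultiplexing used bcl2fastq 2.19.1.403, and alignment used STAR on GRCm39, per the submitters' processing notes. The STAR version, the quantifier, the annotation release, the use of strand and the division of shared reads were not stated in the sources used. The authors deposited estimated counts per gene and a table of CPM made from them after adding 0.0001 count, for 26709 genes with a total of at least 10 counts. Coordinates are the table's, written 1-based.

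Estimated counts were rounded, filtered with filterByExpr (19718 genes left), scaled by TMM and compared with edgeR 4.0.16 (robust quasi-likelihood F test, R 4.3.3), with Benjamini-Hochberg adjustment over all genes tested. Alternatives used DESeq2 1.42.0, limma 3.58.1 on voom values and on log2(CPM + 1) or log2(CPM + 0.25) of the deposited CPM, other scalings and filters, each library left out, and a fit with a transcript length trend removed, the last chosen after seeing the data. Sums and shares have no test. The scripts were tested on simulated data. GENCODE M21 (GRCm38) supplied transcript structure and length only. At 74.0 to 82.6 M counts per library, a level of 0.1 CPM stands for a handful of reads, and p-values reflect variation among these tumours, part of which may be technical.

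The members and gene lists were chosen with earlier results of these data known. Named are the C-type genes, in each other type the 4 members with the highest mean level and the 3 tested with the largest log2 fold change, the 3 genes of smallest unadjusted p in each related list, leading cell type markers, the 3 nearest genes on either side, genes between members, and genes behind a count of 5 or fewer. Others, such as Ctcf, Rbfox3, Epcam, Pcdhgb6, Pcdhgb7 and Pcdhgb8, were named after their values were seen.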

Additional observations from a re-analysis of the deposited data

Results flagged for a closer look

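Of 94 sets of 4 tumours, 4 held a tumour whose gap to the nearest of the others exceeded, as a share of the whole range, the 95% critical value of Dixon's test. Chance gives about 1 in 20 such sets. GrB-Fc-KS49 replicate 1 had 0.458 CPM of Pcdhga4, against 1.08 to 1.16 CPM in the other GrB-Fc-KS49 tumours. IgG control replicate 4 had a Pcdhgc4 share of the gamma counts of 22.6%, against 14.3% to 15.6% in the other IgG control tumours. The same library had 9.71 CPM of Pcdhb22, against 8.37 to 8.49 CPM in the other IgG control tumours. IgG control replicate 3 had 4.49 CPM of Pcdhb21, against 3.19 to 3.30 CPM in the other IgG control tumours.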

How the results depend on the processing

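The direction of Pcdhgc4 held under all 19 alternatives that gave it a value. Directions of the summed levels held under the 11 alternatives in which sums were taken, except the C-type sum, which lay near 0 throughout. The Pcdhgc4 log2 fold change ran from 1.15 to 1.42 with single libraries left out and from 1.13 to 1.38 otherwise, and its gain in share of gamma counts from 22.8 to 32.9 percentage points. With single libraries left out, the log2 ratio of sums ran from -0.24 to -0.10 for gamma, -1.01 to -0.60 for gamma B, -0.42 to -0.20 for gamma A, -0.03 to 0.08 for gamma C, -0.29 to -0.08 for beta and 0.20 to 0.82 for alpha. The number of genes called over the whole table moved most: 0 in the main edgeR test, 4747 with DESeq2, 1 with limma-voom, 4952 at an adjusted p under 0.10, and 0 to 3447 with single libraries left out (1260 without GrB-Fc-KS49 replicate 1 and 3447 without GrB-Fc-KS49 replicate 4). The median of the tested members was -0.16 on limma's log2(CPM + 1) scale, which shrinks low genes, and -0.53 to -0.24 with single libraries left out. Lower members at an unadjusted p under 0.05 numbered 4 without both U libraries, 1 at a p under 0.01 and 3 to 10 with single libraries left out, 3 being without IgG control replicate 1. Without GrB-Fc-KS49 replicate 4, Pcdhb18 joined Pcdhgc4 among higher members without overlap, so that this count was 1 to 2. Lower members without overlap, 10 in the main fit, numbered 9 to 14 with single libraries left out and 7 to 14 under other alternatives. Upper quartile scaling put 61.4% of genes at an unadjusted p under 0.05 on the higher side, against 49.2% with TMM, and the median of all genes at 0.09, against 0.03. For the named members, 329 of 339 values under an alternative moved by less than the spread between tumours. Pcdhb13, at -0.69 in the main fit, moved most often, to -0.09 on the log2(CPM + 1) scale and to -0.93 without both U libraries. Pcdhb22, at -0.01, moved to 0.19 with the length trend removed, and Pcdhb11, Pcdhga5 and Pcdhga2 also had values that moved. The cause of these shifts was not tested. No paired analysis was possible because the labels give the groups no shared replicate numbers. For alpha genes and for Pcdhb2, Pcdhb6 and Pcdhb8, depth limits what can be compared.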
